A study of Mus musculus with 6 samples.

Results

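Pappa, a secreted metalloproteinase gene, and 9 genes of the insulin-like growth factor (IGF) system that work with it were followed in C2C12 cells, a mouse myoblast line put through myotube differentiation. The 10 genes were taken by symbol from a table of 24421 gene symbols, and all 10 were found and passed the filter on low counts. They are Pappa, its inhibitors Stc1 and Stc2, the ligands Igf1 and Igf2, the receptors Igf1r and Igf2r, and the binding proteins Igfbp3, Igfbp4 and Igfbp5. Pappa was chosen by its rise in the contrast described here, and the other 9 as its partners when their values in that contrast were already known. Fold changes of the 10 genes are therefore given as a description, without p-values.

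In both groups the cells carried a lentivirus and were selected with puromycin, then moved to medium with low horse serum and harvested for RNA. The 3 libraries labelled shGAA carried a short hairpin RNA against Gaa, the gene of lysosomal acid alpha-glucosidase. The 3 libraries labelled shScrambled carried a control hairpin of scrambled sequence. The titles of all 6 also hold the word Fed, which the labels leave unexplained. How many hairpins or infections stand behind a group, and whether its libraries are separate cultures, is not stated, so the spread between libraries may be technical. Levels are given as CPM, the count scaled to library size with TMM factors, in the order of libraries 1, 2 and 3. Fold changes are of shGAA relative to shScrambled on the log2 scale, with the standard error (SE) of edgeR's quasi-likelihood fit.

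Most IGF in tissues is held by binding proteins, and a protease that cuts the binding protein frees the ligand beside its receptor. Pappa encodes such a protease, pregnancy-associated plasma protein A, which acts on the products of Igfbp4 and Igfbp5, while the stanniocalcins encoded by Stc1 and Stc2 inhibit it. Igf1r encodes the signalling receptor of both ligands. Igf2r encodes a receptor that removes IGF2 from the cell surface and also carries newly made hydrolases, acid alpha-glucosidase among them, to lysosomes. In cultured myoblasts Igf2 and Igfbp5 are known to be expressed during differentiation.

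The stretch that makes Pappa a protease is shown beside that of its closest relative Pappa2, because the pair share a catalytic site. Their levels per kb of exons overlapped in shScrambled and not in shGAA. The coding sequences below, from GENCODE M21 on GRCm38, each encode the zinc-binding motif of metzincin proteases, and capitals mark the codons of its 3 zinc-binding histidines. The Pappa stretch lies at chr4:65180920-65180952 on the plus strand, in exon 4 of 22 (codons 559 to 569 of 1624). The Pappa2 stretch lies at chr1:158857336-158857368 on the minus strand, in exon 4 of 22 (codons 734 to 744 of 1789). The motif occurs 1 time in each protein, and 25 of its 33 bases are the same in both genes.
Pappa: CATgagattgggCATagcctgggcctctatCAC
Pappa2: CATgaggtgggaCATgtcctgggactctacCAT

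The libraries held between 9224038 and 10430270 counts. Gaa had 469, 445 and 552 counts under shGAA against 1033, 1158 and 1119 under shScrambled, which is 49.1 ± 2.43 (SD, n = 3) against 117 ± 9.43 CPM (SD, n = 3). One control stood apart. The chi-square per degree of freedom between shScrambled 1 and the other controls was 5.87 and 5.31, against 1.95 to 2.54 for all other pairs within a group. The library shScrambled 1 was also far from the other controls for several of the 10 genes, as given below. Of 14 myotube markers, 13 were tested, of which 10 fell and 0 rose, beside 19.7% lower and 18.5% higher over all tested genes. Their summed level was 2532, 2579 and 2355 CPM under shGAA against 3514, 3133 and 3148 CPM under shScrambled. Most of that sum was Des, also listed as a myoblast marker, with a mean of 1664 CPM in shGAA and 2047 in shScrambled. In bulk RNA, fewer cells of a type and less RNA per cell cannot be told apart. The part of myotube content in the values of the IGF genes was not tested.

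Over the whole table, 38.2% of 11801 tested genes were called at an adjusted p under 0.05 (edgeR's quasi-likelihood test, Benjamini-Hochberg), 18.5% higher and 19.7% lower in shGAA. Higher genes made up 48.4% of the calls, and 60.0% (2809 higher, 1872 lower) when libraries were scaled by size alone. The 2 groups did not overlap in 49.6% of tested genes. Of the 10 IGF genes, 3 were called higher (Pappa, Stc2 and Igf2r) and 4 lower (Stc1, Igf1r, Igfbp4 and Igfbp5), and 3 were not called (Igf1, Igf2 and Igfbp3). These 7 are also the genes whose groups did not overlap. The median log2 fold change of the 10 was -0.21, beside 0.01 over all tested genes. Since the contrast was known when the genes were chosen, these counts are a description.

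Pappa had 1438, 1222 and 1557 counts under shGAA against 202, 122 and 138 under shScrambled. In CPM this was 147, 130 and 146 against 20.8, 13.1 and 14.7. Each shGAA library was thus far above each control, and the highest control was shScrambled 1. The means were 141 ± 9.38 (SD, n = 3) and 16.2 ± 4.03 CPM (SD, n = 3), and the log2 fold change was 3.12 ± 0.13 (SE), an 8.69-fold difference. Of 11801 tested genes, 7 including Pappa had a log2 fold change this large. Without shScrambled 1 the log2 fold change was 3.34 ± 0.08 (SE). Pappa (Entrez 18491) lies on chromosome 4 at 65124174 to 65357509, and 0.1% of the 50-base stretches of its transcript occur in transcripts of other genes.

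**Figure D1:**
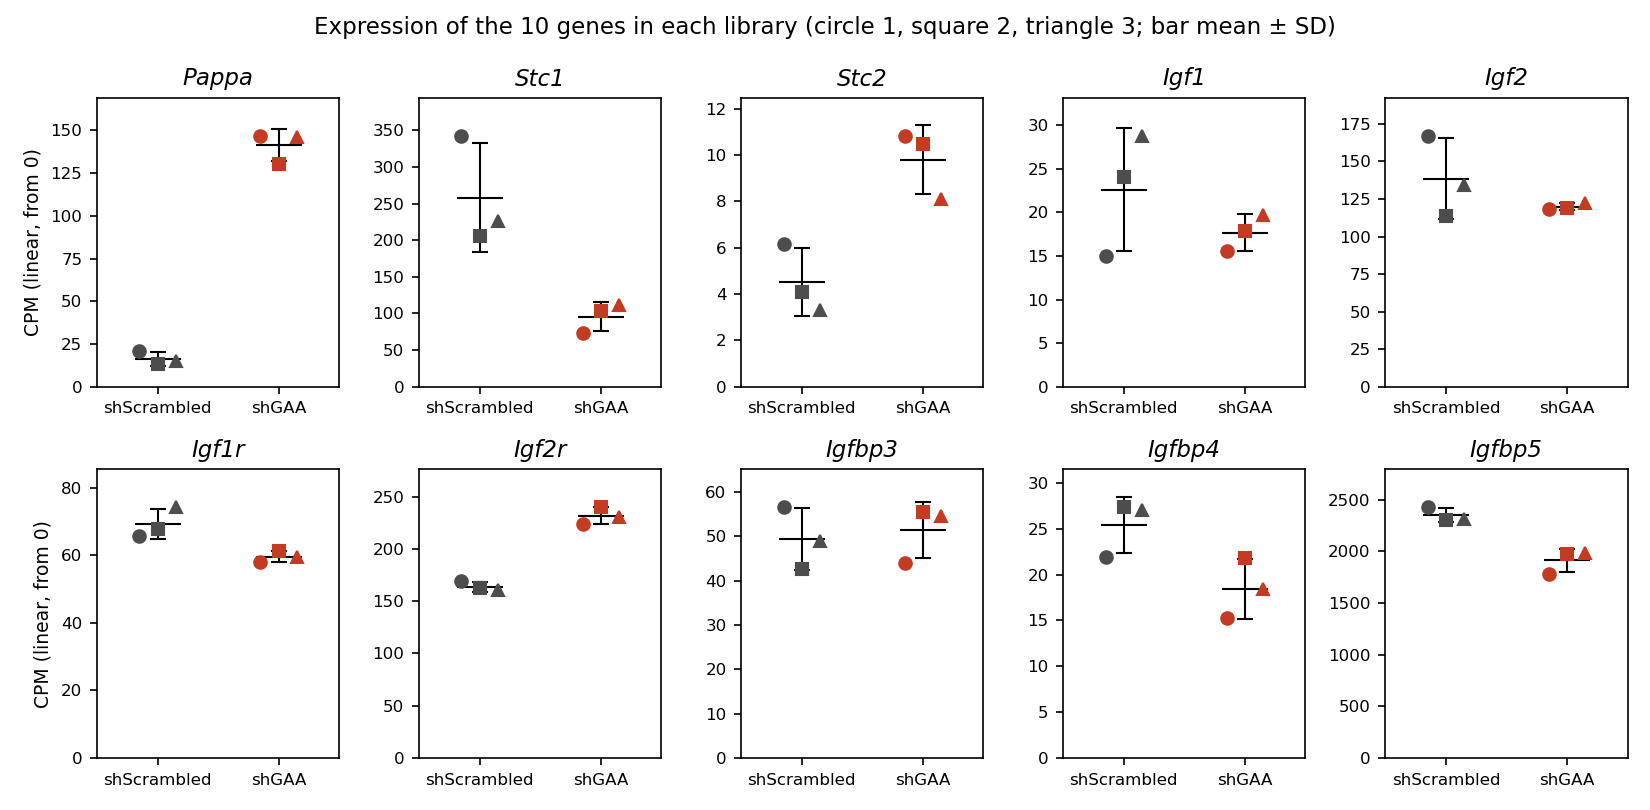
CPM of each of the 10 genes (y axes, linear from 0, 1 scale per gene) in the 3 shScrambled and 3 shGAA libraries, with points for libraries and bars for the mean ± SD. Pappa lies at 130 to 147 CPM in shGAA and 13.1 to 20.8 in shScrambled, Stc1 and Stc2 separate in opposite directions, and the shScrambled 1 circle is the highest control for Stc1, Stc2 and Igf2 and the lowest for Igf1.

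Pappa2, whose product cuts mainly the binding proteins encoded by Igfbp3 and Igfbp5, is not one of the 10 genes. It stood at 16.4, 16.3 and 18.8 CPM under shGAA against 9.66, 15.7 and 15.2 CPM under shScrambled. The groups did not overlap, but the change was not called (0.35 ± 0.15, edgeR adjusted p = 0.0846). It was called without shScrambled 2 (edgeR adjusted p = 0.0338) and with no filter on low counts (edgeR adjusted p = 0.0189). Per kb of exons, Pappa was at 0.780 to 2.01 times the level of Pappa2 in shScrambled and at 7.27 to 8.34 times in shGAA.

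The inhibitors of Pappa went in opposite directions. Stc1 encodes stanniocalcin 1, a secreted glycoprotein hormone. It had 712, 962 and 1185 counts under shGAA against 3335, 1910 and 2118 under shScrambled, or 72.7, 103 and 111 against 343, 205 and 226 CPM. All shGAA libraries were below all controls, though the spread was wide in both groups, with a coefficient of variation of 21.2% in shGAA and 28.7% in shScrambled. The log2 fold change was -1.43 ± 0.29 (SE), which 74 of the tested genes (0.627%) reached or passed on the lower side. Stc1 was called in 6 of 11 alternatives, the fewest of the 7 called genes. Its call was lost when shGAA 1, shGAA 2, shGAA 3 or shScrambled 3 was left out, with log2 fold changes of -1.27, -1.48, -1.56 and -1.52. Without shScrambled 1 it was -1.17 ± 0.22 (SE). An antisense gene model, Gm41192, overlaps 5.46% of its exonic bases on chromosome 14.

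Stc2 encodes stanniocalcin 2, which binds the protease covalently. It was a low gene, with 106, 98 and 86 counts under shGAA against 60, 38 and 31 under shScrambled. The mean was 9.79 ± 1.49 CPM in shGAA (SD, n = 3) and 4.52 ± 1.48 CPM in shScrambled (SD, n = 3). The groups did not overlap, and shScrambled 1 was again the control nearest to shGAA. The log2 fold change was 1.10 ± 0.20 (SE), and 1.4 ± 0.20 without shScrambled 1.

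Because Stc1 was by far the more abundant inhibitor, the sum of the pair followed Stc1. Per kb of exons, Stc1 was 68.5, 62.0 and 84.2 times the level of Stc2 under shScrambled against 8.28, 12.1 and 17.0 times under shGAA. The ratio of Pappa to the sum of Stc1 and Stc2, per kb, was 0.0227, 0.0239 and 0.0245 in shScrambled 1 to 3. It was 0.686, 0.447 and 0.472 in shGAA 1 to 3. The controls were nearly level in this ratio, shScrambled 1 included, although that library was higher for all 3 genes. The ratio of the group means was 22.6. This ratio compares RNA levels, and the proteins and protease activity were not measured.

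**Figure D2:**
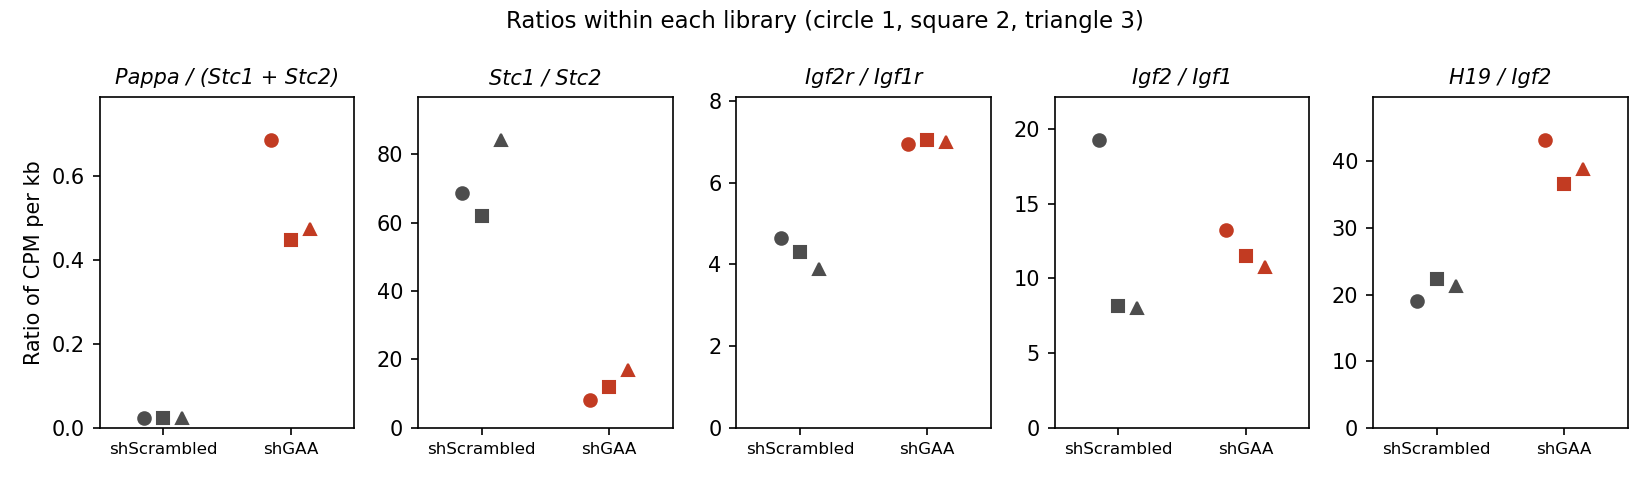
Ratios of CPM per kb of exons (y axes, linear from 0) for 5 gene combinations in each shScrambled and shGAA library. The Pappa to stanniocalcin ratio is 0.0227 to 0.0245 in the controls and 0.447 to 0.686 in shGAA, while the Igf2 to Igf1 ratio overlaps between groups, with shScrambled 1 alone at 19.3.

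The ligands were not called. Igf1 had 152, 167 and 210 counts under shGAA against 146, 224 and 270 under shScrambled, or 17.7 ± 2.11 (SD, n = 3) against 22.6 ± 7.02 CPM (SD, n = 3). The groups overlapped because shScrambled 1, at 15 CPM, lay below every shGAA library. The log2 fold change was -0.35 ± 0.23 (SE), and -0.58 ± 0.11 without shScrambled 1, a setting in which Igf1 was called lower. Without shScrambled 3 it was -0.14 ± 0.18 (SE) and not called. It was also called lower with no filter on low counts.

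Igf2, the ligand that myoblasts make as they differentiate, had 119, 119 and 123 CPM under shGAA against 167, 114 and 134 under shScrambled. The shGAA libraries were almost level (coefficient of variation 1.89%) and lay inside the range of the controls. The log2 fold change was -0.21 ± 0.14 (SE). It was -0.05 ± 0.06 without shScrambled 1, and -0.33 without shScrambled 2, where Igf2 was called lower. Per kb, Igf2 was 19.3 times the level of Igf1 in shScrambled 1, 8.18 and 8.06 times in the other controls, and 10.7 to 13.2 times in shGAA. The gene has 4 start sites in the RefSeq promoter table, so its exon length, and hence its level per kb, depends on which are used. In the GENCODE annotation 62.1% of the 50-base stretches of Igf2 transcripts also occur in other genes, chiefly the overlapping model Gm49394, and how such reads were counted is not stated.

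Igf2 lies on chromosome 7 with the maternally expressed noncoding gene H19 72.6 kb away on the same strand, and the pair share enhancers and an imprinting control region. H19, one of 7 listed genes that act on Igf2 RNA or lie near it, rose from 1230 ± 137 (SD, n = 3) to 2039 ± 169 CPM (SD, n = 3). Its log2 fold change was 0.73 ± 0.09 (SE, edgeR adjusted p = 0.000689). The ratio of H19 to Igf2 per kb was 19, 22.4 and 21.3 under shScrambled against 43.2, 36.6 and 38.9 under shGAA, without overlap. Of the other listed genes, Igf2bp2 and Igf2bp3, which encode proteins that bind Igf2 RNA, were not called, and 4 (Igf2bp1, Igf2os, Dlk1 and Lin28b) were below 1 CPM in every library.

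The receptors differed in opposite directions, by small amounts. Igf2r had 224, 240 and 231 CPM under shGAA against 169, 162 and 160 under shScrambled. Its groups were separated by more than the width of either, and the log2 fold change was 0.50 ± 0.05 (SE), a 1.41-fold difference. Igf1r had 58.0, 61.5 and 59.5 CPM under shGAA against 65.9, 68.0 and 74.4 under shScrambled. Here the shGAA libraries were all lower, by a log2 fold change of -0.22 ± 0.06 (SE). The Igf1r call was lost without shGAA 1 (-0.20) and without shScrambled 3 (-0.17), while the Igf2r call held in all 11 alternatives. The ratio of Igf2r to Igf1r per kb was 4.64, 4.30 and 3.89 under shScrambled against 6.96, 7.05 and 7.0 under shGAA.

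The start of Igf2r is shown because it was the only one among 11 promoter sequences of 8 of the 10 genes to hold CACGTG, a form of E-box. Flanked as TCACGTGA, this palindrome is the centre of the element read by TFEB, a transcription factor of lysosomal genes. The sequence covers chr17:12769657-12769956 on the minus strand of GRCm38.p6 (RefSeq), from 250 bases before to 50 after the annotated start, with CACGTG in capitals. Both strands were searched for CACGTG and for its longer form TCACGTGA. They were also searched for GGGCGG, the core of an SP1 box, and for the general E-box CANNTG, which every CACGTG also meets. For Pappa and Stc1 no promoter sequence was available, so theirs were not searched.
Igf2r: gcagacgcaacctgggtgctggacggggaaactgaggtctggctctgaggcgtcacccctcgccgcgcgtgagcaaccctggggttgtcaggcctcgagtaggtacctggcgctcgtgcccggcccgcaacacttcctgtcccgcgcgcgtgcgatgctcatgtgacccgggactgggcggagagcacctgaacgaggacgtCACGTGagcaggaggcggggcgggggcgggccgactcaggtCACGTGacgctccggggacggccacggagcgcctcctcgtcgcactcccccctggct

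The 2 copies begin 48 and 7 bases before the start, and both are flanked as TCACGTGA. Of 32851 promoter sequences of this length, 7.15% hold CACGTG, 0.974% hold TCACGTGA and 0.0578% hold it at least 2 times. GGGCGG was found 3 times in the Igf2r sequence and is present in 35.7% of promoters. The motif was picked after the sequence had been read, binding was not measured, and the match is a description of the sequence.

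The binding protein genes were level or lower in shGAA. Igfbp5 was the most abundant of the 10 genes per kb of exons and took 0.180% to 0.202% of all counts in shGAA and 0.226% to 0.239% in shScrambled. It had 17413, 18510 and 21106 counts under shGAA against 23668, 21498 and 21719 under shScrambled, or 1913 ± 116 (SD, n = 3) against 2353 ± 68.4 CPM (SD, n = 3). All shGAA libraries were lower, by a log2 fold change of -0.30 ± 0.05 (SE).

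Igfbp4, whose product is the classical substrate of the protease, was low, with 15.2, 21.8 and 18.4 CPM under shGAA against 21.9, 27.4 and 27.0 under shScrambled. The groups nearly touched, between shGAA 2 and shScrambled 1. The log2 fold change was -0.46 ± 0.13 (SE), and its call was lost without shGAA 1 (-0.34). Igfbp3, the main IGF carrier of blood plasma, had 44.0, 55.5 and 54.6 CPM under shGAA against 56.6, 42.5 and 49.0 under shScrambled. The groups overlapped, with a log2 fold change of 0.06 ± 0.11 (SE) that lay between -0.04 and 0.17 over the alternatives.

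Other binding proteins were taken from a list of 6. Of these, 3 were tested and all 3 fell, beside 19.7% called lower over all tested genes. Igfbp1 was at 0 in every library, and Igfbpl1 and Igfals were below 1 CPM. Igfbp2 fell from 461 ± 29.8 (SD, n = 3) to 241 ± 9.12 CPM (SD, n = 3), a log2 fold change of -0.93 ± 0.05 (SE, edgeR adjusted p = 1.4e-09). Igfbp7, a relative with low affinity for IGF, fell by 0.62 ± 0.07 (SE, edgeR adjusted p = 2.61e-06), and Igfbp6, which prefers IGF2, by 0.26 ± 0.06 (SE, edgeR adjusted p = 0.00269). Igfbp2 and Igfbp5 are neighbours on chromosome 1, on opposite strands with 5.59 kb between them, and Igfbp1 and Igfbp3 lie 3.54 kb apart on chromosome 11. The 6 detected binding proteins Igfbp2 to Igfbp7 summed to 628 to 655 CPM per kb in shGAA and 878 to 899 in shScrambled. Igfbp5 made up 47.2% to 50.6% of that sum in shGAA and 42.8% to 46.1% in shScrambled, and Igfbp2 19.5% to 21.7% against 26.5% to 29.5%.

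Levels of the 10 genes can be set beside each other only per length. The lengths used are those of GENCODE M21, while the annotation used for counting is not stated. The order, and the place of Igf2 in it above all, depends on those lengths. In shScrambled the order by mean CPM per kb of exons was Igfbp5 (392), Stc1 (61.5), Igf2 (24.2), Igf2r (17.6), Igfbp3 (15.8), Igfbp4 (5.76), Igf1r (4.13), Igf1 (2.28), Pappa (1.47) and Stc2 (0.873). Libraries of neighbours in this order overlapped for Igf2r and Igfbp3, for Igf1 and Pappa, and for Pappa and Stc2. In shGAA Pappa stood sixth at 12.8 ± 0.851 CPM per kb (SD, n = 3), below Igfbp3 (16.4) and above Igfbp4 (4.18) with no overlap with either. Igf2r (24.9), Stc1 (22.8) and Igf2 (21.0) overlapped in neighbouring pairs there, as did Igfbp4 and Igf1r (3.55) and Stc2 (1.89) and Igf1 (1.79). Igfbp5 stayed first at 318. On this scale Igfbp5 was 215 to 324 times the level of Pappa in shScrambled and 22.2 to 27.8 times in shGAA.

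**Figure D3:**
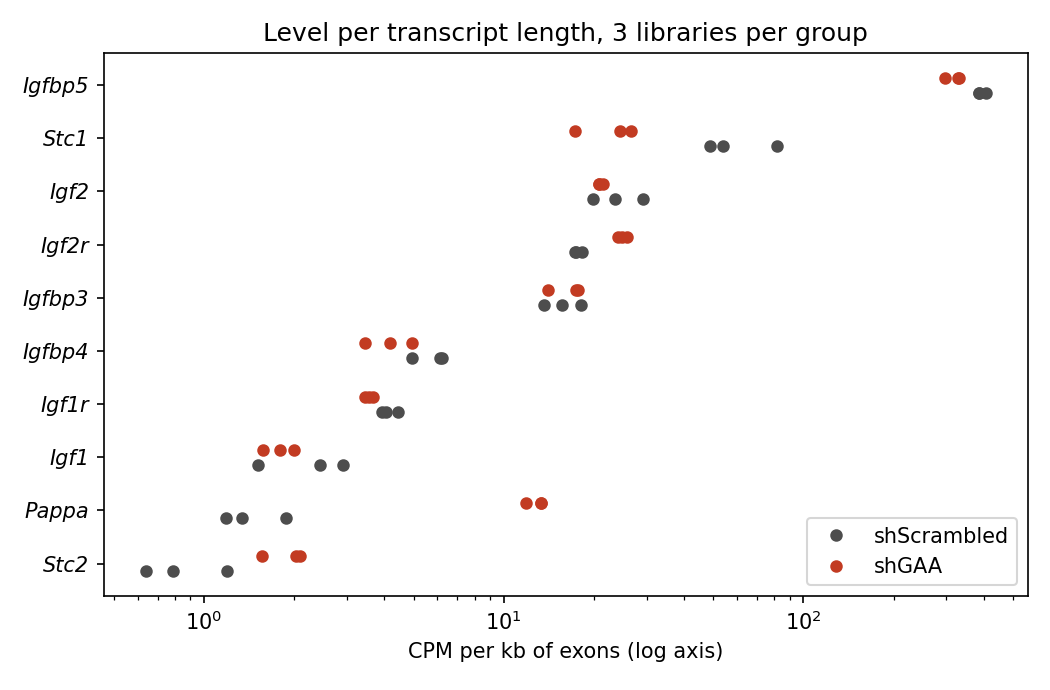
CPM per kb of exons (x axis, log scale) of the 10 genes, with 1 point per library in shScrambled (grey) and shGAA (red), ordered by the shScrambled mean. Pappa moves from next to last, with a mean of 1.47, to between Igfbp3 and Igfbp4, with a mean of 12.8, and Igfbp5 is highest in both groups.

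The library shScrambled 1 differed from the mean of the other controls by over 0.4 on the log2 scale in 5 of the 10 genes. Over all tested genes the share was 9.86%. Against the mean of the other controls, that library differed on the log2 scale by 0.57 for Pappa, 0.67 for Stc1, 0.72 for Stc2, 0.44 for Igf2 and 0.31 for Igfbp3. It was lower by -0.80 for Igf1, -0.31 for Igfbp4 and -0.11 for Igf1r, and close for Igfbp5 (0.07) and Igf2r (0.07). The median absolute difference was 0.37 over the 10 genes and 0.12 over all tested genes. For Pappa, Stc2, Igf1 and Igfbp4 this library was thus on the side of shGAA, and for Stc1 and Igf2 on the other side. The myotube markers were also highest there, as given above.

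Other genes of the axis were taken from 6 lists of 61 genes in all, of which 48 were tested. Of these, 25 were called (52.1%), 16 higher and 9 lower, beside 38.2% of all tested genes, and their median log2 fold change was 0.05. The lists, too, were chosen with earlier results of these data known, so their counts and adjusted p-values are a description. Among 6 genes of other IGF binding protein proteases and their inhibitors, 4 were tested. Adam12, a metalloproteinase gene also active in muscle cell fusion, rose by 1.02 ± 0.18 (SE, edgeR adjusted p = 0.000322) from 4.45 ± 1.19 to 9.09 ± 0.896 CPM (SD, n = 3 each). Htra1, a secreted serine protease gene, fell by 0.32 ± 0.06 (SE, edgeR adjusted p = 0.00130). Pappa2 and Adam9 were not called, Prg2 had no count in any library, and Adam28 was below 1 CPM.

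Among 14 partners and adaptors of the receptors, 11 were tested, 2 rose, 3 fell and 6 were not called. Over all tested genes, 18.5% were called higher and 19.7% lower. Irs2, a docking protein gene of the insulin and IGF receptors, rose by 0.76 ± 0.14 (SE, edgeR adjusted p = 0.000326), and Gab1, another docking protein gene, by 0.40 ± 0.08 (SE, edgeR adjusted p = 0.00132). The phosphatase gene Ptpn1, whose product removes phosphate from these receptors, fell by 0.76 ± 0.06 (SE, edgeR adjusted p = 5.04e-08), from 116 to 68.6 CPM. Gnb2l1, an older symbol of the scaffold gene Rack1, fell by 0.30 ± 0.04 (SE, edgeR adjusted p = 6.76e-05). The insulin receptor gene Insr was at 0.06 ± 0.08 (SE, edgeR adjusted p = 0.576), and Irs1 at 0.22 ± 0.16 (SE, edgeR adjusted p = 0.339). Irs1 was called higher without shScrambled 2, with an edgeR adjusted p of 0.000778.

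All 22 genes of the PI3 kinase, AKT and FOXO list were tested, and 10 rose, 2 fell and 10 were not called, with a median of 0.11. The shares over all tested genes were 18.5% higher and 19.7% lower. The transcription factor genes Foxo3 and Foxo1 rose by 0.55 ± 0.11 and 0.51 ± 0.10 (SE), with edgeR adjusted p of 0.000774 and 0.000888. Rptor, the defining subunit of mTOR complex 1, fell by 0.41 ± 0.06 (SE, edgeR adjusted p = 2.81e-05). Of the other called genes, Pik3ca and Pik3cb lost their call without shGAA 2, shGAA 3 or shScrambled 2, with edgeR adjusted p of up to 0.152 and 0.0898. Akt1 lost it without shGAA 1, shGAA 2, shScrambled 1 or shScrambled 3, and Foxo4 without any 1 library other than shScrambled 1, with edgeR adjusted p of up to 0.202 and 0.122. On all 6 libraries DESeq2 did not call Pik3ca, Akt1 or Foxo4, with adjusted p of 0.0952, 0.0797 and 0.103. Of 6 growth hormone input genes, 5 were tested, 2 rose and 3 were not called. Jak2, the kinase gene of the growth hormone receptor, rose by 0.36 ± 0.08 (SE, edgeR adjusted p = 0.00151), and the receptor gene Ghr by 0.20 ± 0.05 (SE, edgeR adjusted p = 0.00772). The Ghr call was lost without shGAA 2, with an edgeR adjusted p of 0.0576.

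**Figure D4:**
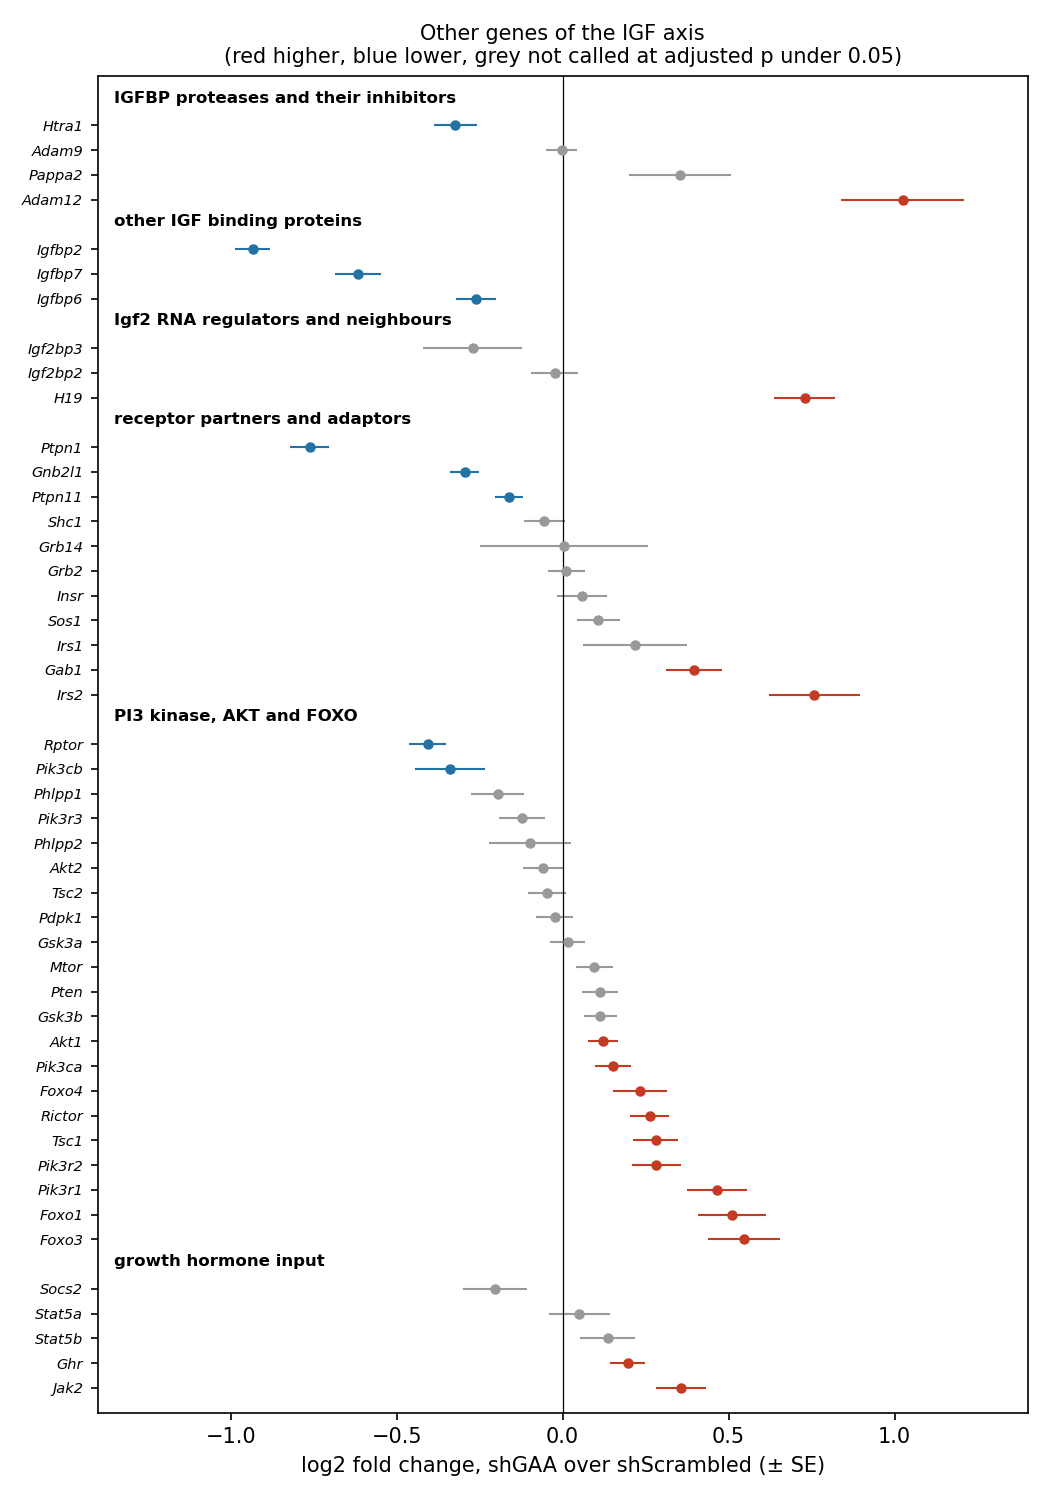
Log2 fold change of shGAA over shScrambled with its SE (x axis) for the tested genes of the 6 lists except 1 (y axis, grouped by list), red where called higher, blue where called lower and grey where not called. All 3 tested binding proteins are below 0, and Adam12, Irs2 and H19 are the largest rises.

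The genes whose profile over the 6 libraries was most like that of Pappa were found among 10334 genes with a mean of at least 5 CPM. Likeness was the root mean square difference between log2 CPM profiles, each centred on its own mean. Postn, the gene of the matricellular protein periostin, was nearest (0.30), followed by the interferon-induced gene Ifi44 (0.35), the extracellular hemicentin gene Hmcn1 (0.45), the interferon-induced gene Oasl2 (0.47) and the granzyme gene Gzme (0.50). The median over all compared genes was 1.58. As the measure is set mostly by the size of the group difference, these are genes with log2 fold changes of 2.25 to 2.54, below the 3.12 of Pappa.

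The part of other cell types in the values above was not tested, and their markers are given by list. Of 8 leukocyte markers, 3 (Itgam, Cd3e and Kit) were at 0 and the list summed to 1.5 to 2.25 CPM in shGAA and 2.68 to 3.80 in shScrambled. The adipocyte list summed to 9.30 to 12.3 CPM in shGAA and 6.78 to 8.65 in shScrambled, with 4 of 7 at 0 (Plin1, Cidec, Lep and Cfd). Nearly all of that sum was Pparg, a transcription factor gene of adipocyte differentiation, which rose from 7.40 ± 1.02 to 10.8 ± 1.62 CPM (SD, n = 3 each, edgeR adjusted p = 0.0121). The endothelial list summed to 4.6 to 5.44 CPM in shGAA and 2.67 to 5.37 in shScrambled. In it the receptor gene Tek rose from 1.52 ± 0.612 to 3.82 ± 0.692 CPM (SD, n = 3 each, edgeR adjusted p = 0.00176). The cadherin gene Cdh5 fell from 1.73 ± 0.862 to 0.659 ± 0.331 CPM (SD, n = 3 each, edgeR adjusted p = 0.0280). Its groups overlapped, at 4, 5 and 11 counts under shGAA against 17, 24 and 8 under shScrambled. Of 10 fibroblast and stromal markers, Thy1 and Tcf21 were at 0, 2 rose, 2 fell, and the sum was 1645 to 1835 CPM in shGAA and 1801 to 1959 in shScrambled. Of 9 osteoblast and chondrocyte markers, 6 were below 1 CPM in every library, with a sum of 135 to 143 CPM in shGAA and 162 to 194 in shScrambled. In that list 3 were tested, 0 rose and 1 fell. It was Sox9, from 108 ± 8.40 to 75.9 ± 2.87 CPM (SD, n = 3 each, edgeR adjusted p = 9.6e-06). Of 9 myoblast markers, 7 were tested, 2 rose and 2 fell, with a sum of 3757 to 4074 CPM in shGAA and 4528 to 4805 in shScrambled. The lower sum came from Des (mean 2047 to 1664 CPM), which is also in the myotube list, and Itga7 (1566 to 1178). Myf5 (45.2 to 64.4) and Ncam1 (218 to 254) rose. Over all tested genes, 18.5% were called higher and 19.7% lower.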

How the data were processed

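Raw counts of reads were deposited by the authors as a table of gene symbols against libraries. The submitters' processing notes name mm10, HISAT2 2.1.0, Subread, FastQC and edgeR. For the annotation, the strand setting and reads matching several genes, no source used here states the setting. Genes were kept by filterByExpr (11801 of 24421), scaled by TMM and tested with edgeR 4.0.16 (R 4.3.3, robust quasi-likelihood, a 2-group model). P-values were adjusted by Benjamini-Hochberg across the tested genes, with a threshold of 0.05. CPM per kb used the union of GENCODE M21 exons. The code was tested on simulated counts, where the share of calls that fell on unchanged genes was above the nominal threshold. The simulation changed far fewer genes than were called here, so the size of that share does not carry over to these data. Calls near the threshold are to be taken as less certain than their adjusted p states. Alternatives were DESeq2 1.42.0, library size only, no filter, limma-voom (limma 3.58.1), a replicate block and leaving out each library. The 10 genes and all lists were chosen with earlier results of these data known. Named were the 10 genes, up to 4 called genes per list with the smallest adjusted p, and the 5 genes most like Pappa. 1 listed gene that this rule names is counted but not reported here by name. Other genes named, such as Pappa2, Insr, Irs1, Pparg, Tek and Cdh5, were chosen after their values were seen. 3 listed genes were matched through older symbols.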

Additional observations from a re-analysis of the deposited data

How the results depend on the processing

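Pappa, Stc2, Igf2r and Igfbp5 kept their direction and call in all 11 alternatives. Their log2 fold changes were 2.99 to 3.34, 0.92 to 1.4, 0.47 to 0.55 and -0.32 to -0.25, in that order. The alternatives use the same libraries in which the genes were chosen, so a kept call is a description and no independent support. Leaving out 1 library at a time, 4 to 8 of the 10 genes were called, 3 of them higher in every case and 1 to 5 lower, with 1 lower without shGAA 1 and 2 without shScrambled 3. With fewer libraries the test has fewer degrees of freedom. The count was 8 without shScrambled 1 and 8 without shScrambled 2, against 7 with all 6 libraries. What set these counts was not tested. Leaving out 1 library at a time, 20 to 26 of the other genes of the axis were called. Igfbp3, not called in any setting, changed sign without shScrambled 2 (-0.04). No called gene among the 10 reversed. Same-numbered libraries did not deviate together (correlations of -0.04, 0.06 and -0.01), so the numbers were not taken as pairs. With the replicate block 7 of the 10 genes were called (Igf1 in place of Stc1), 22 of the other axis genes (Pik3ca, Akt1 and Foxo4 lost) and 4234 of all genes. DESeq2 called 22 of the other axis genes, against 25, and lost the same 3. Depth limits Stc2 most, at 31 to 106 counts a library.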
